A study of Rattus norvegicus with 13 samples.

Results

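Potassium channel genes were followed in the ventral midbrain of rats that received METH preconditioning, a METH challenge, both or neither. The channel genes are those whose symbol on the Illumina RatRef-12 array starts with Kcn, taken with 1 probe per gene, the probe with the fewest values at the lower limit and then the lowest probe number. This gave 81 genes, on 86 probes, of 13337 genes named in all, and each of the 81 symbols is still current in the rat annotation. RNA of the SN/VTA, the midbrain region of the substantia nigra and the ventral tegmental area, was hybridized to 13 arrays from male Sprague-Dawley rats aged 8 weeks and weighing 330 to 370 g. The MM group (3 arrays) had METH pretreatment and a METH challenge, the SM group (3 arrays) saline pretreatment and a METH challenge, the MS group (4 arrays) METH pretreatment and a saline challenge, and the SS group (3 arrays) saline on both occasions. By the study methods pretreatment lasted 3 weeks, with METH doses between 0.5 and 2.5 mg/kg. The challenge of 8 injections (METH at 5 mg/kg, or saline, given 1 h apart) followed 72 h later, and tissue was taken 24 h after it. The dosing schedule in the paper's supplement instead puts the last pretreatment on the Monday of week 3 and the challenge on that Wednesday. The labels number the arrays within each group but do not tie each to a separate animal, so the p-values measure the spread between arrays. The label for amplification names striatal RNA, whereas the tissue is given as SN/VTA.

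Potassium channels let potassium leave the cell, and so set the resting potential, shorten the action potential and limit the rate of firing. Voltage-gated (Kv) subunits open on depolarization, inward rectifiers (Kir) carry current near rest and answer to G proteins or ATP, tandem-pore (K2P) channels give a standing leak, and calcium-activated channels open after calcium enters. In midbrain dopamine neurons the Kv4 channels and the small-conductance calcium-activated channel Kcnn3 pace firing, and the G protein-gated Kir3 channels carry the inhibition by dopamine D2 and GABA-B receptors. Astrocytes use Kcnj10 and Kcnj16 to clear potassium from around the neurons.

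The deposited value of a probe is a ratio to the probe's own level across arrays, which stops at 0.01 at the low end, and the signal of each array in units was recovered from it, with values at the limit read as 0. The signal of a probe depends on the probe as well as the transcript, so levels were compared between arrays and never between genes. Of the 81 channel genes, 60 (74.1%) were above the limit on all 13 arrays, a share that the choice of probe raises for the 4 genes with several probes. Of all 22523 probes 63.5% were above it on all arrays. A further 15 channel genes were above the limit on some arrays and 6 on none. Those 6 were Kcna7, Kcne1, Kcnf1, Kcng3, Kcnj1 and Kcnrg, the last of which is a regulator of channel assembly. By subfamily, all members were above the limit on every array for Kvbeta (3 of 3), Kv2 (1 of 1), Kv3 (2 of 2), Kv4 (3 of 3), KChIP (4 of 4), SK/IK (3 of 3) and Slack (2 of 2). The shares were 6 of 8 for Kv1, 7 of 10 for the silent Kv subunits, 5 of 8 for the ether-a-go-go (EAG) family, 2 of 3 for Kv7, 2 of 4 for KCNE, 10 of 14 for Kir, 7 of 10 for K2P and 3 of 5 for BK. Genes at the limit have a signal below background on these probes, which does not show that the transcript was absent.

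The defining genes of dopamine neurons were present in part. Of 11 such markers with a probe, 6 were above the limit on all arrays, Th among them. Ddc and Foxa1 were at the limit on all 13 arrays and En2 on all but MS 2, Slc6a3 was at the limit on MS 3, and Foxa2 was at it on MS 3 and MS 4. The summed signal of the 11 markers was 4676 to 7584 units in MM, 6607 to 9964 in SM, 5076 to 11305 in MS and 4779 to 6823 in SS arrays, with Aldh1a1 the largest contributor on every array. The mean log2 level of the 6, relative to the average array, was lowest on SS 4 (-0.75), MS 3 (-0.42) and MS 4 (-0.38). The 6 were not all low on these arrays. Th gave 211 units on SS 4, whereas Aldh1a1 gave 5110 on MS 3 and 5011 on SS 4, above its 3316 on SS 2. All 8 markers of striatal projection neurons also gave signal on every array, with sums of 4389 to 5344 units in MM, 4868 to 5389 in SM, 4782 to 5313 in MS and 4749 to 5265 in SS. The same arrays, MS 3, MS 4 and SS 4, stood apart in the mean of the 8 markers of serotonin neurons. This mean log2 level, relative to the average array, was -1.14, -0.95 and -0.97 on them and between 0.06 and 0.53 on the other 10 arrays. By this mean they are called low in serotonin markers, although single markers differed. Tph2 was low on MS 3 (753 units), whereas Gata2 on MS 4 (397) lay above its value on SM 3 (334). These low arrays all had the saline challenge, so the comparisons of METH with saline challenge carry the difference. All 8 markers were higher in MM against MS (median log2 fold change 0.71) and for the averaged challenge (median 0.47). The summed blood markers (7 genes, 6 above the limit on all arrays and none at the limit throughout) were 28263 to 47142 units in MM, 28393 to 32124 in SM, 34567 to 46586 in MS and 47731 to 59857 in SS arrays, so SS lay above the other groups. Markers of meninges and choroid plexus (12 genes, 10 above the limit on all arrays and none at the limit throughout) had mean log2 levels of -0.42 to 0.17 in MM, -0.49 to -0.12 in SM, 0.03 to 0.29 in MS and 0.05 to 0.26 in SS. The 7 oligodendrocyte markers, all above the limit on every array, had mean log2 levels of -0.23 to -0.02 in MM, -0.19 to -0.06 in SM, -0.06 to 0.19 in MS and 0.03 to 0.24 in SS. For the averaged challenge 6 of 7 had negative values and 4 passed an unadjusted p of 0.05 in limma, as 5.7% of all probes did. The smallest adjusted p of the 7 was 0.447. In the same comparison 5 of 7 blood markers and 4 of 12 meningeal and choroid plexus markers passed an unadjusted p of 0.05. What these lists contribute to the channel values was not tested. In tissue of mixed cells, fewer cells of a type and less RNA per cell cannot be told apart.

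Promoter sequence was matched for 56 of the 81 channel genes, as the 250 bases before the RefSeq start in the rat build GRCr8. These windows had a median GC content of 59.6%, against 52.0% for the 27457 promoters of the table. A GC box (GGGCGG, either strand) was found in 48.2% of the channel promoters and 32.4% of all promoters, and a CCAAT box (CCAAT, either strand) in 23.2% and 34.3%. A TATA box (TATAAA, either strand) occurred in 2 channel promoters, Kcnj1 and Kcnj13, or 3.57%, against 13.1% of all. The response element of the NGFI-B family (AAAGGTCA, either strand) occurred in the Kcnh1 window alone, or 1.79%, against 1.11% of all. The cyclic AMP response element (TGACGTCA, which reads alike on both strands) was in none of the channel windows and in 1.7% of all. Of these motifs none contains another. A match is a description of the letters, and no binding was measured. The windows of Kcnn3, which had the smallest permutation p of the relations to marker lists before adjustment, and of Kcna2, which met the criterion for change in 2 comparisons, are shown 5′ to 3′ with GC boxes and CCAAT boxes in capitals, on the plus strand at chr2:177234090-177234339 for Kcnn3 and chr2:197393280-197393529 for Kcna2.
Kcnn3: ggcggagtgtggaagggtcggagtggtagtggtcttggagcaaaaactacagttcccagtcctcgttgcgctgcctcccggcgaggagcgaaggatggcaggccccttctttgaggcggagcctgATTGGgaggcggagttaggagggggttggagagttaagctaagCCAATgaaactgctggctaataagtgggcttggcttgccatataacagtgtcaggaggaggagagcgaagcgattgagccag
Kcna2: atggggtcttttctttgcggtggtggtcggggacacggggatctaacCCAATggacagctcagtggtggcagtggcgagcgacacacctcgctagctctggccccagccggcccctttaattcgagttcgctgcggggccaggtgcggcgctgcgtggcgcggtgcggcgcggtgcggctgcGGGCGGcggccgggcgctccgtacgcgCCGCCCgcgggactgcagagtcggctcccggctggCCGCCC
The Kcnn3 window held 2 CCAAT boxes and no GC box. The Kcna2 window held 1 CCAAT box and 3 GC boxes, 1 on the strand shown and 2 on the other, and was the richer in GC at 72.4% against 57.2% for Kcnn3.

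The groups were compared to ask which channel genes followed METH pretreatment alone (MS against SS), the challenge after saline (SM against SS), the challenge after METH (MM against MS) and METH pretreatment among challenged rats (MM against SM). Log2 ratios of 73 channel genes could be tested in limma together with all other probes, 17140 in total, and 8 were too often at the limit. A gene counted as changed at 1.7-fold with an unadjusted p under 0.05 in limma, which is the criterion used throughout. Few channel genes met it, and none passed Benjamini-Hochberg adjustment over all probes. In MM against MS 1 of 73 channel genes changed, Kcnh3, where 1.32% of all tested probes did. In MM against SM 1 of 73 changed, Kcna2, against 1.55% of all probes. In SM against SS 1 of 73 changed, again Kcna2, against 1.62%. In MS against SS none of 73 changed, against 1.13%. Averaged over both pretreatments the METH challenge changed none of 73, against 1.17%, and the challenge effect differed between pretreatments by the same criterion for none, against 1.66%.

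Without the fold criterion, the channel genes with an unadjusted limma p under 0.05 numbered 2 of 73 in MM against MS (4.39% of all probes), 2 in MM against SM (3.47%), 4 in SM against SS (4.36%) and 1 in MS against SS (2.62%). They numbered 2 for the averaged challenge (5.7%) and 1 for the difference between the challenge effects (2.86%). The median log2 fold change of the 73 was -0.12 in MM against MS, 0.02 in MM against SM, 0.02 in SM against SS and 0.06 in MS against SS, where the medians of all tested probes were -0.01, 0.0010, 0.01 and 0.02 in the same order. The 60 genes above the limit on all arrays allow a bound on what could have been missed. Their 95% intervals lay within 2-fold in either direction for 50 genes in MM against MS, 47 in MM against SM, 50 in SM against SS and 48 in MS against SS. Within 1.7-fold, the size the criterion asks for, they lay for 36 genes in MM against MS, 41 in MM against SM, 41 in SM against SS and 40 in MS against SS. Several genes below were named for the smallest p of a comparison. With so few arrays, groups that do not overlap nearly follow from that choice and are no added support. The share of all probes whose groups do not overlap is not given here.

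**Figure D1:**
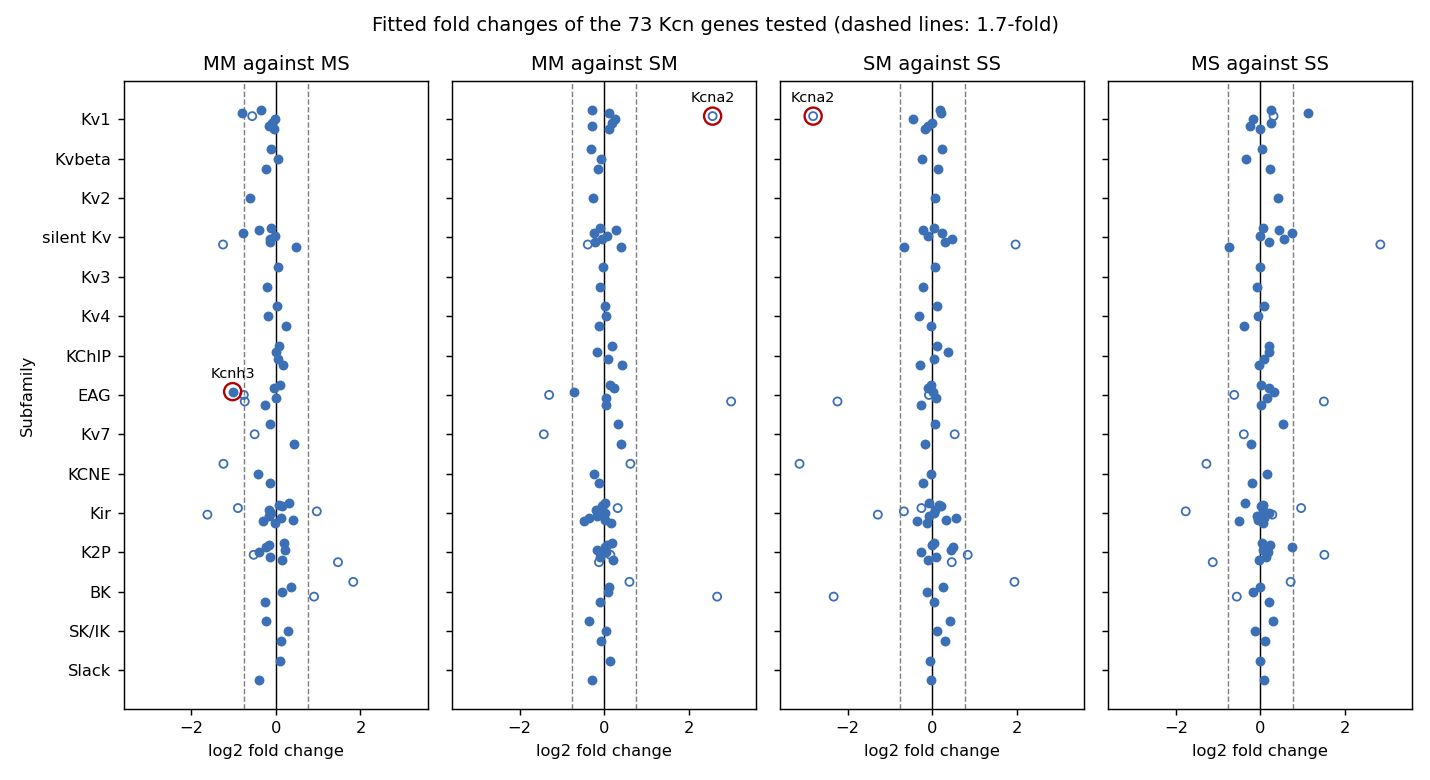
Log2 fold change (x axis) of each of the 73 channel genes tested, by subfamily (y axis), in MM against MS, MM against SM, SM against SS and MS against SS. Filled points are genes above the limit on all 13 arrays, open points genes at the limit on at least 1, dashed lines mark 1.7-fold and red rings the genes called changed, which were Kcnh3 once and Kcna2 in 2 comparisons.

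The Kv1 channels, Shaker-type subunits of axons and their terminals, were measured through 8 genes, of which 7 were tested. Kcna2, the main Kv1 subunit of axons together with Kcna1, gave 11.8, 13.6 and 6.10 units in MM, 8.95, 3.91 and 0 in SM, 15.1, 14.6, 20.5 and 10.3 in MS and 16.5, 6.43 and 15.5 in SS arrays. The SM values were low, array SM 4 was at the limit, and SM 1 lay within the range of SS. In the fit Kcna2 fell in SM arrays relative to SS (-2.82 on the log2 scale, SE 1.17, adjusted p = 1 in limma) and was higher in MM relative to SM (2.57, SE 1.17, adjusted p = 1). Both values rest on SM 4, whose value was set to the floor before the logarithm. Without that array Kcna2 was called in neither comparison, with log2 fold changes of 0.75 for MM over SM and -0.998 for SM over SS. The call in SM against SS was also lost without SS 2 and without SS 4, that in MM against SM was lost under 19 of 26 alternatives, and on a scale of log2(signal + 16 units), which damps dim values, the difference in SM against SS was -0.51.
The other Kv1 genes tested (Kcna1, Kcna3, Kcna4, Kcna5, Kcna6 and Kcna10) were above the limit on all arrays and none changed. All 7 Kv1 genes tested had negative log2 values for the averaged challenge, with a median of -0.13 and none passing the test, where 40 of the 73 channel genes and 8657 of the 17140 probes were negative. The Kvbeta subunits, which bind Kv1 channels and change their inactivation, showed no change. Kcnab2, the subunit that helps carry Kv1 channels to axons, had log2 fold changes of 0.04 in MM against MS, -0.23 in SM against SS and -0.34 in MS against SS, none past an unadjusted p of 0.05.

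The Kv3 and Kv4 channels shape the falling phase of the spike and the interval to the next, and none of their genes was called. Kcnc1, the Kv3 subunit of fast-spiking neurons, ranged from 1912 to 2678 units over the 13 arrays, and its log2 fold changes lay between -0.03 and 0.06 in the 4 comparisons of groups. Kcnd2, which forms the A-type current that delays the next spike, gave 1762, 1576 and 1576 units in MM, 1602, 1725 and 1408 in SM, 1979, 1993, 1888 and 1670.5 in MS and 1746, 2013 and 2131 in SS arrays. All SM values lay below all SS values, and the MM and MS values overlapped only through MS 4. Its log2 fold change was -0.31 in SM against SS (SE 0.12, adjusted p = 1) and -0.26 for the averaged challenge (SE 0.08, adjusted p = 0.5945 in limma). Both Kcnd2 values are well under 1.7-fold, and the 95% interval in SM against SS ran from -0.57 to -0.06. The oligodendrocyte, blood and meningeal markers also had mostly negative values for the averaged challenge, with medians on the log2 scale of -0.23, -0.58 and -0.29. Those of serotonin and dopamine neurons had mostly positive values, with medians of 0.47 and 0.42. The part of all these lists in the values of Kcnd2, Kcnh8 and Kcnmb1 was not tested.
Kcnd3, the Kv4 subunit of dopamine neurons, was more variable. It gave 1021, 1242 and 555 units in MM, 1074, 905 and 912 in SM, 717, 921, 617 and 771 in MS and 801, 1037 and 1108 in SS arrays. Its groups overlapped in every comparison, with the lowest value on MM 3, and its log2 fold change was 0.25 in MM against MS (SE 0.24) and -0.02 in SM against SS (SE 0.26). The Kv2 channels were represented by Kcnb2 alone, which ranged from 8.72 to 25.4 units and was not called. Of the silent subunits, which join Kv2 channels and alter their gating, 8 of 10 were tested and none changed. Among them Kcns2 had a log2 fold change of 0.55 in MS against SS (SE 0.30, adjusted p = 1). Without SS 2 it was 0.87 and met the criterion, and it was -0.20 among arrays numbered 1 and 2 and 1.00 among those numbered 3 and 4.

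The KChIP proteins, calcium-binding partners of Kv4 channels, were all above the limit on every array, and none met the criterion. Kcnip4 gave 183, 215 and 184 units in MM and 179, 135 and 125 in SM arrays. All MM values lay above the SM values, by 0.42 on the log2 scale (SE 0.16, adjusted p = 1 in limma). In MS the values were 160.3, 159, 218 and 159.5 units and in SS 166, 181 and 178, so that MM overlapped MS through MS 3 and lay just above SS.
Kcnip2 ran the other way, with 223, 245 and 304 units in SM and 207, 204 and 181 in SS arrays. The groups did not overlap and the log2 fold change was 0.37 (SE 0.15, adjusted p = 1). In MM it gave 245, 231 and 204 units and in MS 252, 219, 186 and 258, with a log2 fold change of -0.0049 between them. Kcnip3, the KChIP found with Kcnd3 in dopamine neurons, had log2 fold changes between 0.04 and 0.09 in the 4 comparisons of groups.

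**Figure D2:**
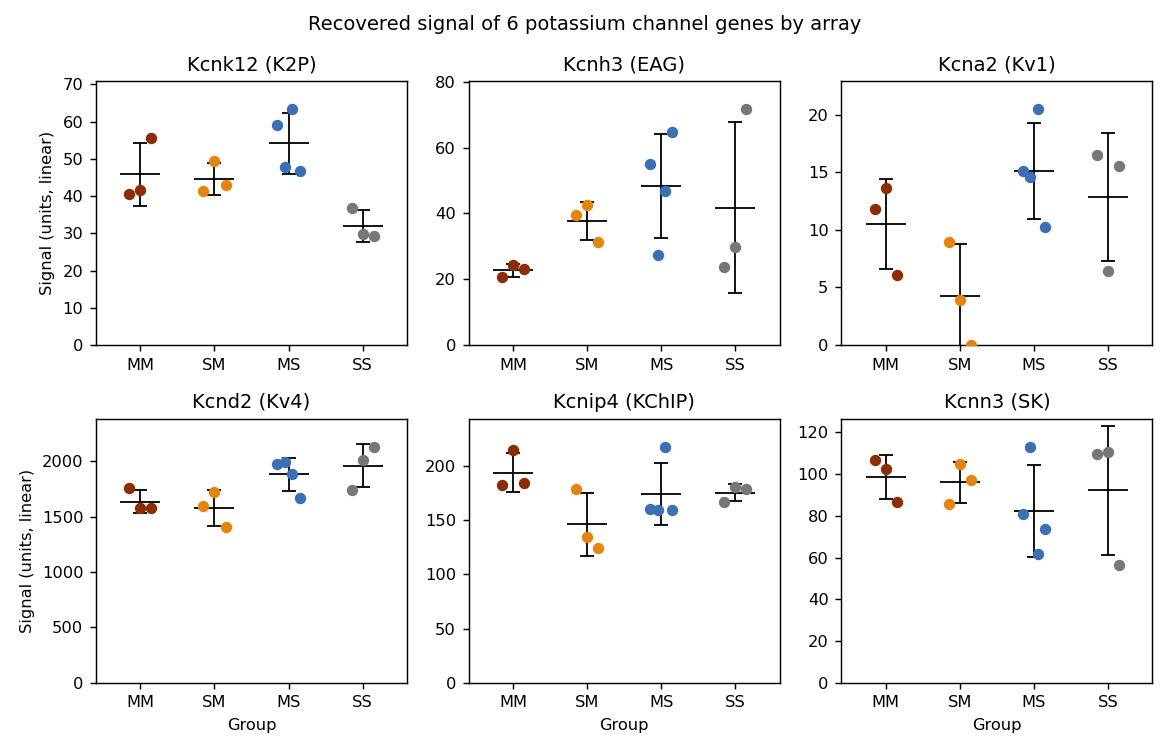
Recovered signal in units on a linear scale (y axis) of 6 channel genes on each array, by group (x axis), with the mean (wide bar) and SD over 3 arrays (4 for MS), the SD bar of Kcna2 in SM being cut at 0. Kcnk12 was lowest in SS and Kcnh3 lowest in MM, while Kcnn3 was at its lowest on SS 4 and MS 3.

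The EAG family, which includes the ERG channel Kcnh2 and the ELK channels Kcnh3, Kcnh4 and Kcnh8, held the call in MM against MS. Kcnh3, a forebrain ELK channel that opens below the firing threshold, gave 20.5, 24.5 and 23.2 units in MM, 39.6, 42.5 and 31.3 in SM, 54.9, 27.3, 46.7 and 64.7 in MS and 23.7, 29.9 and 71.6 in SS arrays. The MM arrays lay below all MS and SM arrays and reached into the range of SS, which was itself spread widely by SS 4. The log2 fold change was -1.02 in MM against MS (SE 0.35, adjusted p = 0.999 in limma) and -0.72 in MM against SM (SE 0.38, adjusted p = 1). Kcnh3 was also high on SS 4 and MS 4, which are among the 3 arrays low in serotonin markers. Without those 3 arrays, which leaves MS 1 and MS 2 in MS, the log2 fold change in MM against MS was -0.77 and still met the criterion. Leaving out any 1 array kept it between -1.28 and -0.86. It was -0.79 among arrays numbered 1 and 2 and -1.24 among those numbered 3 and 4. On the log2(signal + 16 units) scale it was -0.70, short of 1.7-fold. Without SS 4 Kcnh3 met the criterion in 2 further comparisons, with log2 fold changes of 0.79 in MS against SS and -1.52 for the difference between the challenge effects.
The remaining EAG genes did not change. Kcnh2, which resets the membrane after bursts, ranged from 181 to 281 units and had log2 fold changes of -0.06 in MM against MS, 0.24 in MM against SM, -0.09 in SM against SS and 0.21 in MS against SS. Kcnh8 had a log2 value of -0.26 for the averaged challenge (SE 0.11, adjusted p = 0.826 in limma).

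Of the Kv7 genes, several of which form the M-current that muscarinic receptors shut, Kcnq1 and Kcnq5 were above the limit on all arrays and Kcnq3 was at the limit on 8 of 13. Kcnq5 gave 24.1, 24.2 and 34.2 units in MM and 21.3, 18.9, 22.6 and 18.7 in MS arrays. The groups did not overlap, and the log2 fold change was 0.42 (SE 0.19, adjusted p = 0.999 in limma). In SM it gave 17.9, 17.9 and 27.8 units and in SS 26.9, 25.3 and 19.0, which overlap. Kcnq1, which pairs with KCNE subunits, had a log2 fold change of 0.54 in MS against SS (SE 0.30, adjusted p = 1). The KCNE subunits gave low signals throughout, Kcne1 was at the limit on every array, and none of the 3 tested changed.

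No inward rectifier changed in any comparison, with 13 of 14 genes tested. The median log2 fold change of the 13 was -0.01 in MM against MS, -0.05 in MM against SM, -0.07 in SM against SS and 0.05 in MS against SS. Among the Kir3 subunits, which G proteins open, Kcnj9 ranged from 79.2 to 115 units, Kcnj3 from 20.1 to 39.9 and Kcnj5 from 16.6 to 38.9. Kcnj9 was the steadiest, and its 95% interval lay within 1.7-fold in MM against MS (-0.28 to 0.26 on the log2 scale), SM against SS (-0.41 to 0.17) and MS against SS (-0.21 to 0.33).
Kcnj11, the pore of the ATP-sensitive channel that couples firing to metabolism, ranged from 136 to 180.2 units, with log2 fold changes of 0.08 in MM against MS, 0.16 in SM against SS and 0.07 in MS against SS. Its vascular relative Kcnj8, found in pericytes and smooth muscle, gave 43.0, 30.2 and 42.0 units in MM, 41.2, 57.0 and 61.9 in SM, 24.98, 43.3, 65.0 and 69.8 in MS and 57.0, 67.3 and 79.2 in SS arrays. The MM values lay below all SS values, the MS values spanned nearly the whole range, and no comparison passed (log2 fold change -0.51 in MS against SS, SE 0.32). Without the 3 arrays low in serotonin markers, an alternative added after the data were seen, that difference was -0.91 and met the criterion. It then rested on MS 1 and MS 2 against SS 2 and SS 3 alone.
Of the astrocyte channels, Kcnj16 ranged from 271 to 359 units and its log2 fold changes in the 4 comparisons of groups lay between -0.12 and 0.19. Kcnj10, its partner subunit, ranged from 25.1 to 53.7 units, with a log2 fold change of 0.30 in MM against MS (SE 0.22) and -0.36 in MS against SS (SE 0.22).

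Among the K2P leak channels, 9 of 10 were tested and none met both parts of the criterion, although Kcnk12 had the smallest p of any channel gene. Kcnk12 encodes a halothane-inhibited type of subunit that carries little current when expressed on its own. It gave 59.0, 47.7, 63.3 and 46.6 units in MS and 36.9, 29.9 and 29.3 in SS arrays. Every MS value lay above every SS value, by 0.75 on the log2 scale (SE 0.15, adjusted p = 1 in limma), or 1.69-fold, just short of 1.7-fold. The difference stayed between 0.67 and 0.86 when any 1 array was left out, passing 1.7-fold without MS 2 (0.81), MS 4 (0.82) or SS 2 (0.86), and was 0.52 among arrays numbered 1 and 2 and 0.88 among those numbered 3 and 4.
In SM arrays it gave 41.4, 49.4 and 43.0 units, again above all SS values (log2 fold change 0.48, SE 0.16, adjusted p = 0.966). In MM arrays it gave 40.5, 41.5 and 55.5 units, which overlap both SM and MS. The challenge effect on Kcnk12 was thus -0.24 after METH (SE 0.15) and 0.48 after saline, and their difference was -0.73 (SE 0.23, adjusted p = 1). The SS arrays, which were the low group for Kcnk12, were also the group high in the blood markers, and the part of blood in the value was not tested. Without the 3 arrays low in serotonin markers the difference in MS against SS was 0.67, still past an unadjusted p of 0.05 and short of 1.7-fold. That left MS 1 and MS 2 against SS 2 and SS 3.
The other leak channels did not change. Kcnk1 ranged from 1523 to 2341 units and Kcnk2, a channel that responds to stretch and lipids, from 438 to 814. Kcnk3, an acid-sensitive leak channel, ranged from 104 to 169.7 units with log2 fold changes between -0.10 and 0.21 in the 4 comparisons of groups. Its relative Kcnk9 was at the limit on 12 of 13 arrays and was not tested.

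Of the channels that sense calcium or sodium, none changed. Kcnma1, the pore of the large-conductance BK channel, was at the limit on 9 of 13 arrays. Its neuronal beta subunit Kcnmb4, which slows the channel, gave 118, 129 and 116 units in MM and 141, 154, 132 and 157 in MS arrays. The groups did not overlap, and the log2 fold change was -0.26 (SE 0.12, adjusted p = 0.999 in limma). Kcnmb1, the smooth muscle beta subunit, had a log2 value of 0.31 for the averaged challenge (SE 0.15, adjusted p = 0.875).
Kcnt1, a sodium-activated channel, ranged from 107 to 164 units, with log2 fold changes between -0.05 and 0.15 in the 4 comparisons of groups. Kcnn1 gave 27.2, 25.7 and 23.9 units in MM, 27.9, 35.9 and 34.9 in SM, 38.5, 41.0, 22.3 and 23.7 in MS and 29.6, 23.7 and 21.2 in SS arrays. The MM values lay below the SM values and within the range of MS, whose low pair, MS 3 and MS 4, is among the 3 arrays low in serotonin markers. The difference between the challenge effects was -0.65 (SE 0.32, adjusted p = 1), and without those 3 arrays it was -0.94 and met the criterion, as it did under 6 of 26 alternatives in all.

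Kcnn3, the small-conductance channel that regularizes firing in dopamine neurons, was called in no comparison and varied within groups. It gave 107, 102 and 86.5 units in MM, 85.8, 105 and 97.4 in SM, 80.8, 113, 61.7 and 73.6 in MS and 109.7, 111 and 56.5 in SS arrays. The lowest signals were those of SS 4, MS 3 and MS 4, the 3 arrays low in serotonin markers, and the other 10 arrays lay between 80.8 and 113. Over the 13 arrays log2 Kcnn3 signal correlated with the mean of the 6 dopamine neuron markers above the limit on all arrays (Pearson r = 0.83, permutation p = 0.0003, Spearman rho = 0.75, permutation p = 0.00419, 2-sided). It had the smallest permutation p of r among 180 relations, of 60 channel genes to 3 marker lists, that were computed after the array values had been seen. The 60 relations to serotonin markers used only the 10 arrays not low in them. Over those 10 arrays Kcnn3 also correlated with the serotonin markers (Pearson r = 0.69, permutation p = 0.0289, adjusted 0.495, Spearman rho = 0.79, permutation p = 0.00896, adjusted 0.43), with a higher r than to the dopamine markers over the same arrays. That r was 0.74 without MS 1 and SM 3, the arrays farthest from the median, 0.96 over the 6 arrays numbered 1 and 2, and not computed over the 4 numbered 3 and 4. After adjustment over the 180 the relation to dopamine markers did not pass (0.054 for r and 0.43 for rho). Its r was 0.72 without MS 2 and SS 4, the arrays farthest from the median of the markers, 0.88 after removing group means, and 0.60 over the 10 arrays left without the 3 low in serotonin markers. It was 0.45 over the 6 arrays numbered 1 and 2 and 0.91 over the 7 numbered 3 and 4, and the 3 arrays low in serotonin markers are all in the second set. Kcnn1 (r = 0.66) was the next channel gene with a positive relation to the dopamine markers, and Kcnk15 (-0.66), Kcnk1 (-0.64) and Kcnk13 (-0.63) ran against them, with adjusted permutation p of 0.495 each.

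**Figure D3:**
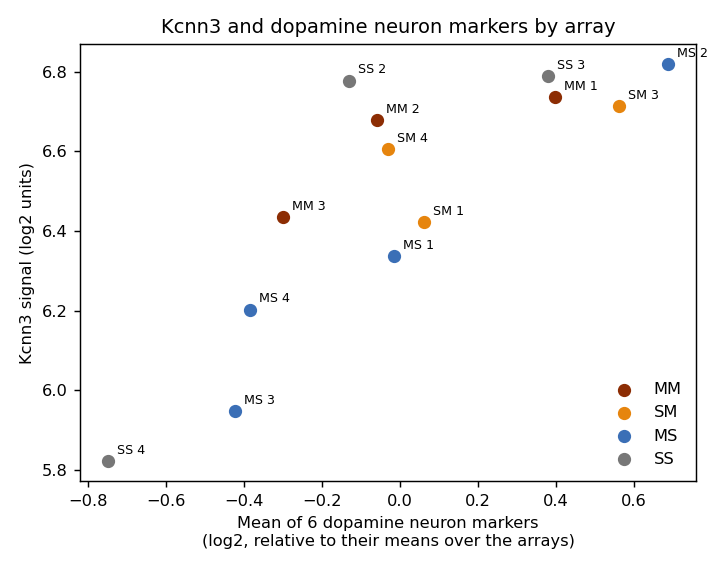
Log2 signal of Kcnn3 (y axis) against the mean log2 level of 6 dopamine neuron markers (x axis, relative to the average array) for the 13 arrays, colored by group. Kcnn3 and the mean of the markers were low together on SS 4, MS 3 and MS 4 and high together on MS 2. Not every marker was low on those arrays, and the arrays of the 4 groups were mixed along the range.

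The precision of these values depended on signal. Among the 60 genes above the limit on all arrays, the SD of log2 signal within groups had a median of 0.42 for the 23 genes averaging under 32 units, 0.31 for the 14 between 32 and 100 units and 0.19 for the 23 at 100 units or more. Kcng1 (SD 0.12), a silent subunit, was the steadiest of the last class and Kcnd3 (SD 0.34) the most variable.

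**Figure D4:**
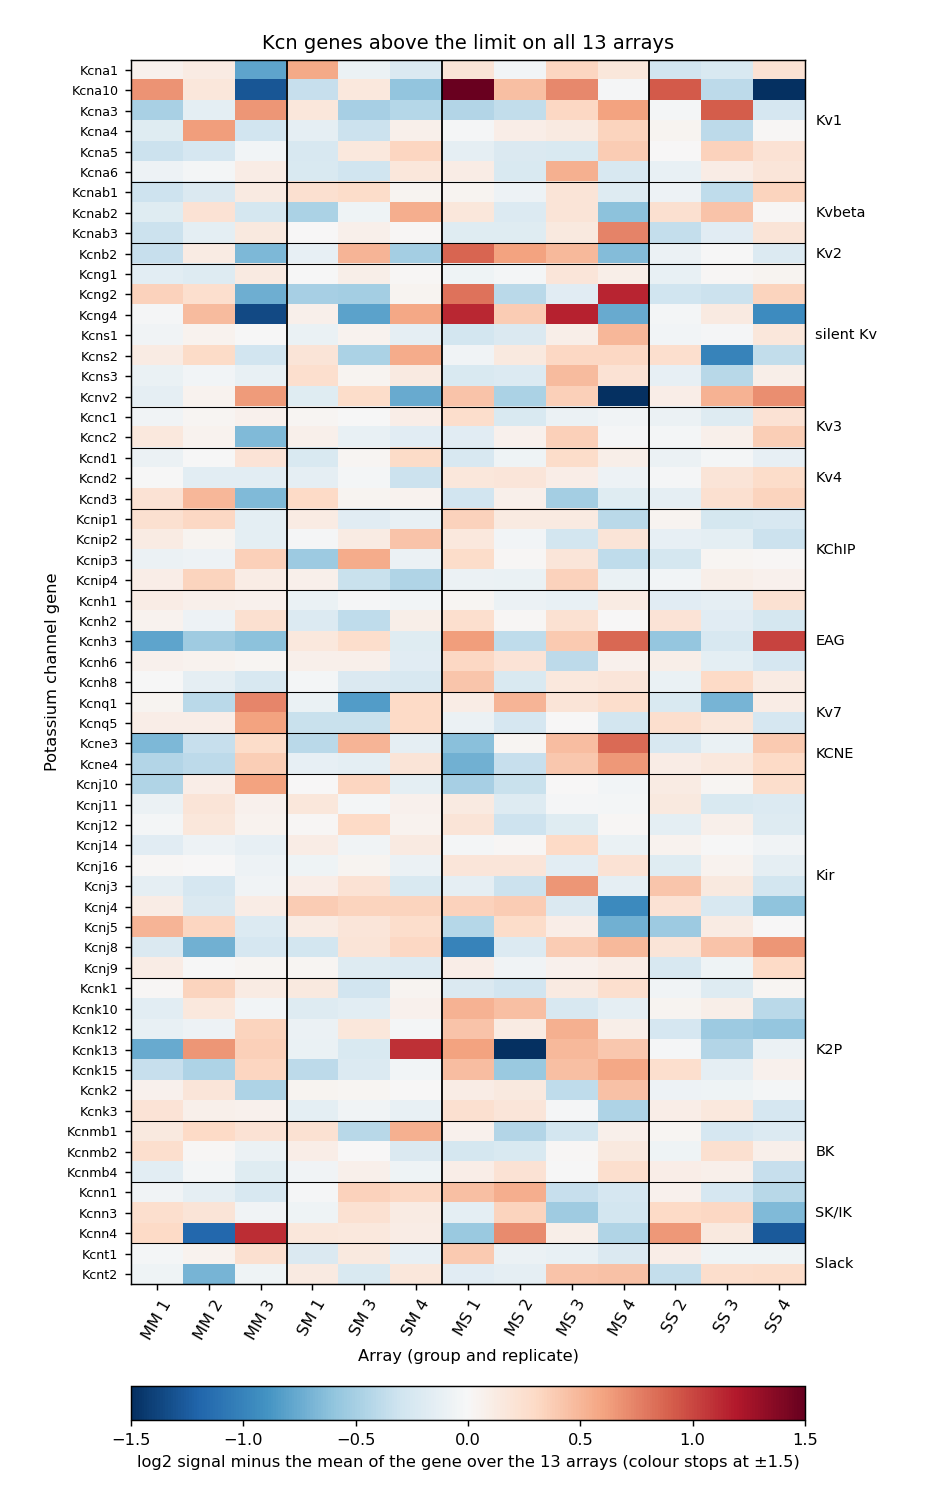
Log2 signal of the 60 channel genes above the limit on all arrays (rows, by subfamily) on each of the 13 arrays (columns, by group), as the difference from the mean of the gene over the arrays. Color varies more between arrays of a group than between groups, with dim genes such as Kcna10 and Kcng4 the most variable.

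Of 35 genes with a probe whose proteins work with the channels, 33 were tested. None changed in MM against MS (1.32% of all probes did), MM against SM (1.55%), SM against SS (1.62%) or MS against SS (1.13%). In limma the number at an unadjusted p under 0.05 was 0 in MM against MS (4.39% of all probes), MM against SM (3.47%) and MS against SS (2.62%) and 1 in SM against SS (4.36%), and counts this small cannot be told from those shares. The exception was Gnai1, an inhibitory G protein subunit, which averaged 102 units in SM and 142 in SS arrays (log2 fold change -0.53, SE 0.24, adjusted p = 1). Abcc8, the sulfonylurea receptor that joins Kcnj11 in the ATP-sensitive channel, averaged 516 units in MM, 557 in SM, 540 in MS and 471 in SS arrays. Drd2, the receptor through which dopamine opens Kir3 channels in its own neurons, averaged 266 units in MM, 265 in SM, 277 in MS and 285 in SS arrays. Their median log2 fold change was -0.03 in MM against MS, -0.0045 in MM against SM, 0.04 in SM against SS and 0.06 in MS against SS.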

How the data were processed

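Per the labels, RNA was hybridized to Illumina RatRef-12 arrays and read in BeadStudio. The authors then normalized signals in GeneSpring, and the deposited ratio of a probe is its scaled signal divided by its median over the 13 arrays (or by 10 units, if lower), with a limit of 0.01 that 28.2% of values share. Signals were recovered as whole multiples of a step per array (all 29831 dim values within 0.02 of whole). The number of arrays limits the precision.

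Here, ratios were divided by the array median, values under the 25th percentile (0.012) were set to it as a floor, and log2 values were tested for the 17140 probes that exceeded it on 3 arrays or more, with group means, all 4 groups in a single fit and a trended prior in limma 3.58.1 (R 4.3.3). Values at the limit were set to the floor. Intervals are from the same fit. The steps were tested on simulated data. Correlations used 100000 permutations. Alternatives covered scaling, floor, filter, prior, arrays and blocks. A search for pore motifs in proteins was not run.

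Genes were named with values where they met the criterion, were among the 3 with the smallest p-values of a comparison among genes above the limit on all arrays, or belonged to a list of 30 channels known in midbrain, of which 24 are reported here. Kcna10, Kcnb2, Kcng1, Kcng4, Kcnj15, Kcnk13, Kcnk15 and the partners given with values were named after their values were seen. The members and lists were chosen with earlier results of these data known.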

Additional observations from a re-analysis of the deposited data

Results flagged for a closer look

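Kcnip4, a KChIP, was far higher on array MS 3 than on the other MS arrays. Its signal there was 218 units, and the gap to the next MS array was 0.982 of the whole range of the group on the log2 scale, past the 95% critical value of Dixon's test for 4 arrays. Kcnj16, an astrocyte Kir subunit, was lowest on the same array, at 276 units, with a gap of 0.8795 of the range. The test was made in MS, the only group of 4, for the 29 genes chosen by the naming rule that were above the limit on all arrays. Chance marks about 1 in 20 groups, so flags this few among 29 genes cannot be told from chance. MS 3 is among the 3 arrays low in serotonin markers, and the part of those cells in these values was not tested.

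For Kcnk12, a K2P subunit, the challenge effect in METH-pretreated rats minus that in saline-pretreated rats was -0.725 on the log2 scale (adjusted p = 1 in limma). It passed an unadjusted p of 0.05, the only gene to do so among the 32 named by the rule and tested. The rule named Kcnk12 for its small p in this same comparison, so its passing among the named genes is no added support. Of the 73 channel genes tested 1 passed, against 2.86% of all probes. The log2 fold change was -0.24 in MM against MS, whose arrays overlapped, and 0.48 in SM against SS, where all 3 SM arrays lay above all 3 SS arrays.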

How the results depend on the processing

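The counts of channel genes called rested on few arrays and on the treatment of dim values. In MS against SS the count was 0, and 3 (Kcnb2, Kcnj15 and Kcnj8) without the 3 arrays low in serotonin markers, an alternative added after the data were seen. In SM against SS the count of 1 went to 0 with log2 of signal plus 16 units, with probes above 0.01 on all arrays, with the compared groups alone, without the 3 arrays and at an adjusted p under 0.05. In MM against MS the count of 1 went to 0 with an offset of 0.5, with signal plus 16 units and at an adjusted p under 0.05, and to 2 without the 3 arrays. In MM against SM the count of 1 went to 0 with a floor at 0.5 times its value, signal plus 16 units, no filter, the filter on all arrays, no trend, the groups alone, the block of replicates 1 and 2 against 3 and 4, without the 3 arrays and at an adjusted p under 0.05. The averaged challenge went from 0 to 1 with a floor at 2 times its value and with the block of replicates 1 and 2 against 3 and 4. The difference between the challenge effects went from 0 to 1 with the ratios as deposited and to 4 without the 3 arrays. The cause of these changes was not tested. The share of all probes called is not given for any alternative in this section, so no change in count is a result about channel genes. Leaving out 1 array gave 1 to 3 calls in MM against MS (3 without MS 4, 2 without MM 2), 0 to 2 in MM against SM (2 without MM 3, 1 without SM 1 or SM 3 and 0 without any other array), 0 to 2 in SM against SS (0 without SM 4 or SS 4, 2 without SS 2), and 0 to 3 in MS against SS (3 without SS 2, 2 without MS 4, 1 without MS 2 or SS 4). The range was 0 to 1 for the averaged challenge (1 without MM 3, SM 1, SM 3, SM 4 or MS 3) and 0 to 3 for the difference between the challenge effects (3 without SM 1, MS 4 or SS 2, 2 without MS 2, 1 without MM 3, SM 4, MS 3 or SS 4).

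The labels do not say that a replicate number marks a shared animal or batch, and the study methods name no replicate block. The arrays were therefore treated as unpaired. Of 15 same-numbered pairs across groups 6 had residuals correlated over 0.1 (-0.06 to 0.27, median 0.08). The median was 0.04 for other pairs within replicates 1 and 2 or within 3 and 4, and -0.06 between these sets. For 7 of 13 arrays the best partner was among arrays of their own number. The sets were spread unevenly over the groups, with MM 3 the only MM array in the second, and SM 1 and SS 2 the only SM and SS arrays in the first. With the replicate block the counts were 2 in MM against MS (Kcnh3 and Kcnb2), 0 in MM against SM, 1 in SM against SS (Kcna2), 0 in MS against SS, 1 for the averaged challenge and 2 for the difference between the challenge effects (Kcnk12 and Kcnn1).

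For the 20 fold changes of single genes named for a comparison, 487 of 532 alternatives kept the direction and the side of the criterion, 27 lost the call, 18 gained one and 0 reversed. All losses fell on the called changes, with 6 of 26 alternatives for Kcna2 in SM against SS, 19 of 26 for Kcna2 in MM against SM and 2 of 27 for Kcnh3. The other changes were not called and had no call to lose. All were picked for small p in these data, which favors a kept direction. The count of 60 genes above the limit on all arrays was the same with 0.02 as the limit. Channel genes near the limit, 44 of 81 averaging under 32 units, could not be measured closely. The search for the pore signature of the proteins was not run.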
